A study of Mus musculus with 4 samples.

Results

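The 10 genes described here encode the receptors, kinases and transcription factors that carry interleukin 6 type cytokine signals into the hepatocyte nucleus. They were chosen by symbol and comprise the receptor genes Il6ra, Osmr, Lifr and Il6st, the kinase genes Jak1 and Jak2, the transcription factor genes Stat3, Cebpb and Cebpd, and the feedback inhibitor gene Socs3. All 10 were measured, by 25 of the 17209 probe sets that carry a single gene symbol, among 10923 genes in all. The value of a gene is the mean of its 2 or 3 probe sets.

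The arrays were hybridised with liver RNA from C57BL6/J mice, all male and between 6 and 13 weeks old. The 2 siOrm arrays came from mice given an siRNA against Orm1, which encodes the acute phase protein orosomucoid, and the 2 siControl arrays from mice given a control siRNA. In both groups the siRNA was delivered by a single injection of a lipid carrier, 40% of the liver was removed 3 days later, and the regenerating liver was sampled 48 hours after that operation. The series asks which genes depend on Orm1 during regeneration. No untreated or unoperated liver was analysed here, so every value compares 2 kinds of regenerating, siRNA-treated liver, and the labels leave unsaid whether RNA of several mice was pooled on an array. The p-values therefore measure only the spread between these arrays, which may be technical.

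Interleukin 6, oncostatin M and leukaemia inhibitory factor each bind a receptor of their own and then share the signalling chain gp130, the product of Il6st. The associated JAK kinases phosphorylate STAT3, which enters the nucleus and switches on acute phase genes together with C/EBP-beta and C/EBP-delta, and SOCS3 is made in response and shuts the pathway down. After partial hepatectomy this pathway is one of the early signals that prime hepatocytes to divide.

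Each level below is a log2 signal, given relative to the 4-array median of its probe sets, and all differences are siOrm minus siControl in log2 units. Base 2 was assumed for the logarithm, whose base the sources used here do not name. Because each probe set was centred, levels cannot be compared between genes, and whether hepatocyte markers are abundant cannot be seen. In whole liver, fewer cells of a type and less RNA per cell cannot be told apart.

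The targeted gene separated the groups only weakly. Orm1 stood at -0.24 and -0.02 in the siOrm arrays, against 0.02 and 0.19 in the siControl arrays (difference -0.23, limma adjusted p = 0.994). Its paralogs Orm2 and Orm3 differed more, by -1.08 and -0.91 (limma adjusted p = 0.994 each). The siControl arrays differed from each other with a standard deviation over genes of 0.384, more than the 0.249 of the siOrm pair. Across the groups it ran from 0.233, between siOrm replicate 2 and siControl replicate 1, to 0.428, between siOrm replicate 1 and siControl replicate 2. The closest pair of arrays thus spanned the groups. The values of siControl replicate 2 are followed gene by gene below. Between the groups, limma called 0 of 10923 genes at an adjusted p under 0.05, with 238 higher and 282 lower at an unadjusted p under 0.05.

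The stretches upstream of 2 of the genes are shown, Osmr because it had the largest difference of the 10 and Socs3 because its siControl arrays lay farthest apart and because it is a textbook STAT3 target. Each run holds the 250 bases before the gene's start, read 5′ to 3′ on the gene's strand, from RefSeq with build GRCm38.p6. Capitals mark the STAT motif TTCNNNGAA, which is its own reverse complement.
Osmr, chr15:6874314-6874563, strand -: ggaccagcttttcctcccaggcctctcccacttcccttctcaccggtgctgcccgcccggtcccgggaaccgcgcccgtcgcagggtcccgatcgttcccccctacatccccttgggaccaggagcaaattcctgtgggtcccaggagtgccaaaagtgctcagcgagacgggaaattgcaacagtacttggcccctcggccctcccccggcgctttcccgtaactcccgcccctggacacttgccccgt
Socs3, chr11:117969367-117969616, strand -: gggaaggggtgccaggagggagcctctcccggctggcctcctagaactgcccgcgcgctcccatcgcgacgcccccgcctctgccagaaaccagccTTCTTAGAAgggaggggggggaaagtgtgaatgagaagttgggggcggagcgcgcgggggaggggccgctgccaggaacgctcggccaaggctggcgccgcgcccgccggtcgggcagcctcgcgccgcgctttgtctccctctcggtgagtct
Of the 10 genes, 9 matched the RefSeq promoter table, with 10 entries because Lifr has 2 starts. The STAT motif was found in 1 entry, that of Socs3, as TTCTTAGAA with its first base 154 bases before the start, and the C/EBP motif TTGCNNAA, searched on both strands, in 0 entries. Over all 32851 upstream stretches of that length in the table, 7.02% held the STAT motif and 9.56% the C/EBP motif. A match describes letters and is no proof of a binding site. Cebpd is named only.

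The receptor that oncostatin M uses in the mouse showed the clearest separation of the 10 genes. Osmr stood at -0.55 and -0.38 in the siOrm arrays, against 0.46 and 0.40 in the siControl arrays. Averaged over its probe sets, both siOrm arrays were low and close together, and both siControl arrays high and close together. The groups did not overlap. The difference was -0.90 (SE 0.14, 95% interval from -1.23 to -0.56), which corresponds to 53.8% of the siControl level. It had the 6th smallest p of 10923 genes, and a larger difference was seen in 1.03% of genes. The adjusted p over all genes was 0.857 by limma, so Osmr did not pass the test. With a variance prior that follows the mean value it did pass (limma adjusted p = 0.0418; over all alternatives its adjusted p ran from 0.0418 to 1), as 1 of 8 genes called lower, 0.0732% of all genes.

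Both probe sets of Osmr placed the siOrm arrays below the siControl arrays, but by unequal amounts. Probe set 1418674_at read -1.01 and -0.46 in the siOrm arrays, against 0.46 and 0.71 in the siControl arrays, a difference of -1.32 (SE 0.23). Probe set 1418675_at read -0.08 and -0.31 in the siOrm arrays, against 0.47 and 0.08 in the siControl arrays, a difference of -0.47 (SE 0.19). The range of 0.84 between these 2 differences was wide for this table, since the median range was 0.167 among the 4060 genes with several probe sets, and 2.32% of them had a wider one. The direction of Osmr is thus the same in both probe sets, while its size depends on which is read. Within each group the 2 probe sets ordered the arrays oppositely, so their mean was more even than either probe set. The SE of that mean, 0.14, was below the SE of each probe set. The probe sets had unadjusted limma p of 0.00184 and 0.0515, against 0.000753 for the gene.

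The other receptor genes were spread on either side of 0. Il6ra, which binds interleukin 6 itself, stood at 0.12 and 0.09 in the siOrm arrays, against -0.01 and -0.47 in the siControl arrays. It was the 1 gene of the 10 with both siOrm arrays above both siControl arrays, a pattern seen in 17.0% of all genes. The siOrm arrays were nearly equal, and the difference was 0.34 (SE 0.18, limma adjusted p = 0.994). It was 0.11 without the low siControl replicate 2. Its probe sets differed too, at 0.61 for 1452416_at and 0.07 for 1422270_a_at.

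Il6st, the shared gp130 chain, stood at -0.29 and 0.03 in the siOrm arrays, against 0.05 and 0.14 in the siControl arrays. The groups did not overlap, but siOrm replicate 2 lay within 0.02 of siControl replicate 1 (0.029 against 0.048). The difference was -0.22 (SE 0.16, limma adjusted p = 0.994), and it was -0.07 without siOrm replicate 1. Its probe sets differed by -0.41 for 1460295_s_at, -0.30 for 1452843_at and 0.04 for 1421239_at. Only on 1460295_s_at were the groups apart. Lifr, the receptor chain for leukaemia inhibitory factor, stood at -0.07 and 0.07 in the siOrm arrays, against 0.24 and -0.32 in the siControl arrays. Its siControl arrays enclosed both siOrm arrays, so no separation was seen, and the difference was 0.04 with a 95% interval from -0.49 to 0.57. The interval allows a difference of up to 0.57 upward or -0.49 downward.

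**Figure D1:**
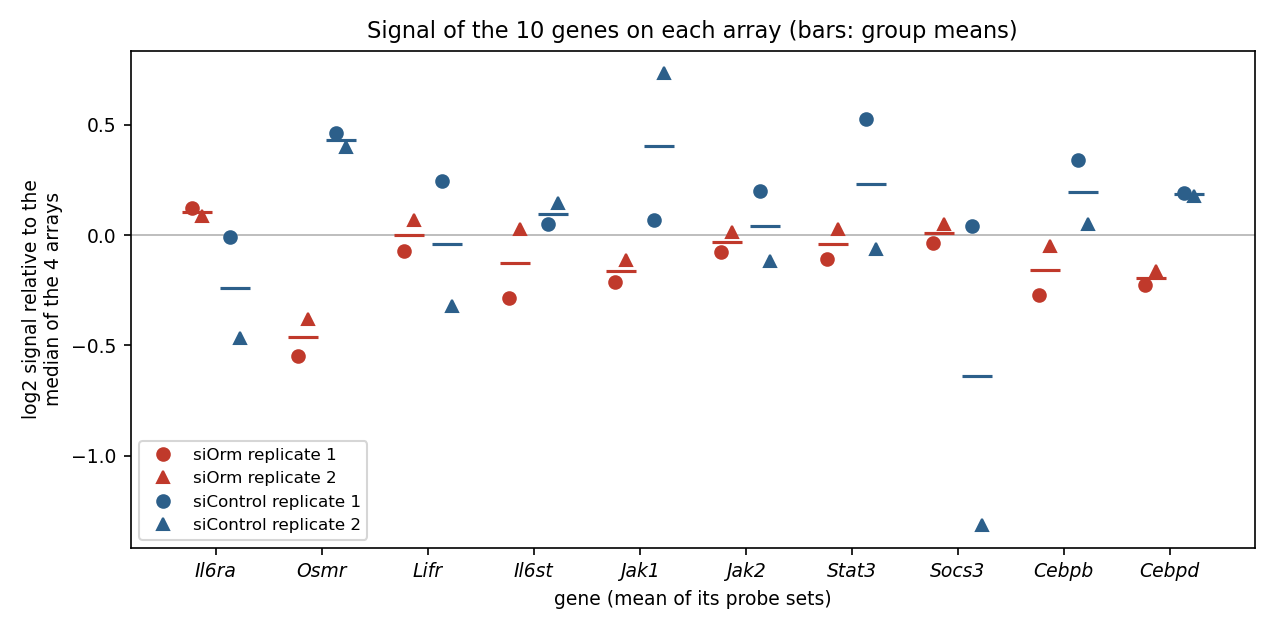
Centred log2 signal (vertical axis) of the 10 genes (horizontal axis) on each array, with siOrm in red to the left of siControl in blue, circles for replicate 1, triangles for replicate 2 and short bars for group means. The groups lie far apart for Osmr, at -0.55 and -0.38 in siOrm against 0.46 and 0.40 in siControl, while Socs3 of siControl replicate 2 stands alone at -1.32.

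The kinase genes gave no even separation. Jak1, which is needed for signalling by all gp130 receptors, stood at -0.21 and -0.11 in the siOrm arrays, against 0.07 and 0.73 in the siControl arrays. The siControl arrays were far apart, and a wider gap between them was seen in 6.87% of genes. The difference was -0.56 (SE 0.24, limma adjusted p = 0.994), and it was -0.23 without siControl replicate 2. Without siControl replicate 1, replicate 2 stands alone for its group, and the spread comes from the 2 siOrm arrays and the prior, the lone array being assumed to vary like them. In that fit Jak1 was at -0.90 with an adjusted p under the threshold (limma adjusted p = 0.0462; over all alternatives from 0.0462 to 1), and 1.68% of all genes were called lower.

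The high value of Jak1 came from a single probe set on a single array. Probe set 1433804_at read 1.80 in siControl replicate 2 and 0.16 in siControl replicate 1, and -0.58 and -0.16 in the siOrm arrays. On the same siControl replicate 2 array, 1433805_at read 0.35 and 1433803_at 0.05. The 3 probe sets gave differences of -1.35, -0.25 and -0.10, and only 0.567% of genes with several probe sets had a wider range. On all 3 the siOrm arrays were both lower than either siControl array, as on 15.8% of all probe sets. Which transcripts each probe set reads was not examined.

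Jak2, the second kinase of the pathway, stood at -0.08 and 0.01 in the siOrm arrays, against 0.20 and -0.12 in the siControl arrays. The siOrm values lay between the siControl values. The difference was -0.07 (SE 0.16, limma adjusted p = 0.999), with a 95% interval from -0.47 to 0.32.

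The transcription factor genes mostly leaned to lower values in siOrm. Stat3 stood at -0.11 and 0.03 in the siOrm arrays, against 0.53 and -0.06 in the siControl arrays. It was high in siControl replicate 1 on all 3 probe sets, at 0.36, 0.61 and 0.61, while siControl replicate 2 lay among the siOrm arrays. The difference was -0.27 (SE 0.22, limma adjusted p = 0.994), and it was 0.02 without siControl replicate 1 and -0.57 without siControl replicate 2. The lean of Stat3 thus depended on which siControl array was kept.

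Cebpb, which encodes C/EBP-beta, a factor activated by interleukin 6 and needed for normal liver regeneration in mice, stood at -0.27 and -0.05 in the siOrm arrays, against 0.34 and 0.05 in the siControl arrays. The groups did not overlap, and the difference was -0.36 (SE 0.17, limma adjusted p = 0.994). Its 2 probe sets were alike, at -0.42 and -0.29. Leaving out 1 array at a time moved it between -0.50 and -0.21, without siControl replicate 2 and without siControl replicate 1.

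Cebpd, which encodes the acute phase factor C/EBP-delta, had the most even arrays of the 10 genes. It stood at -0.23 and -0.16 in the siOrm arrays, against 0.19 and 0.18 in the siControl arrays, a mean of -0.19 ± 0.05 against 0.18 ± 0.01 (SD, n = 2 each). The groups did not overlap, and the difference of -0.38 (SE 0.13, 95% interval from -0.69 to -0.06) ran only from -0.41 to -0.35 over the 4 fits that each leave out 1 array. It had an unadjusted p of 0.0261 and an adjusted p of 0.994 by limma. That evenness hides a disagreement between the probe sets. Probe set 1423233_at read -0.55 and -0.22 in the siOrm arrays, against 0.22 and 0.44 in the siControl arrays, a difference of -0.72. Probe set 1456605_at read 0.09 and -0.10 in the siOrm arrays, against 0.16 and -0.09 in the siControl arrays, a difference of -0.04 with overlapping groups.

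**Figure D2:**
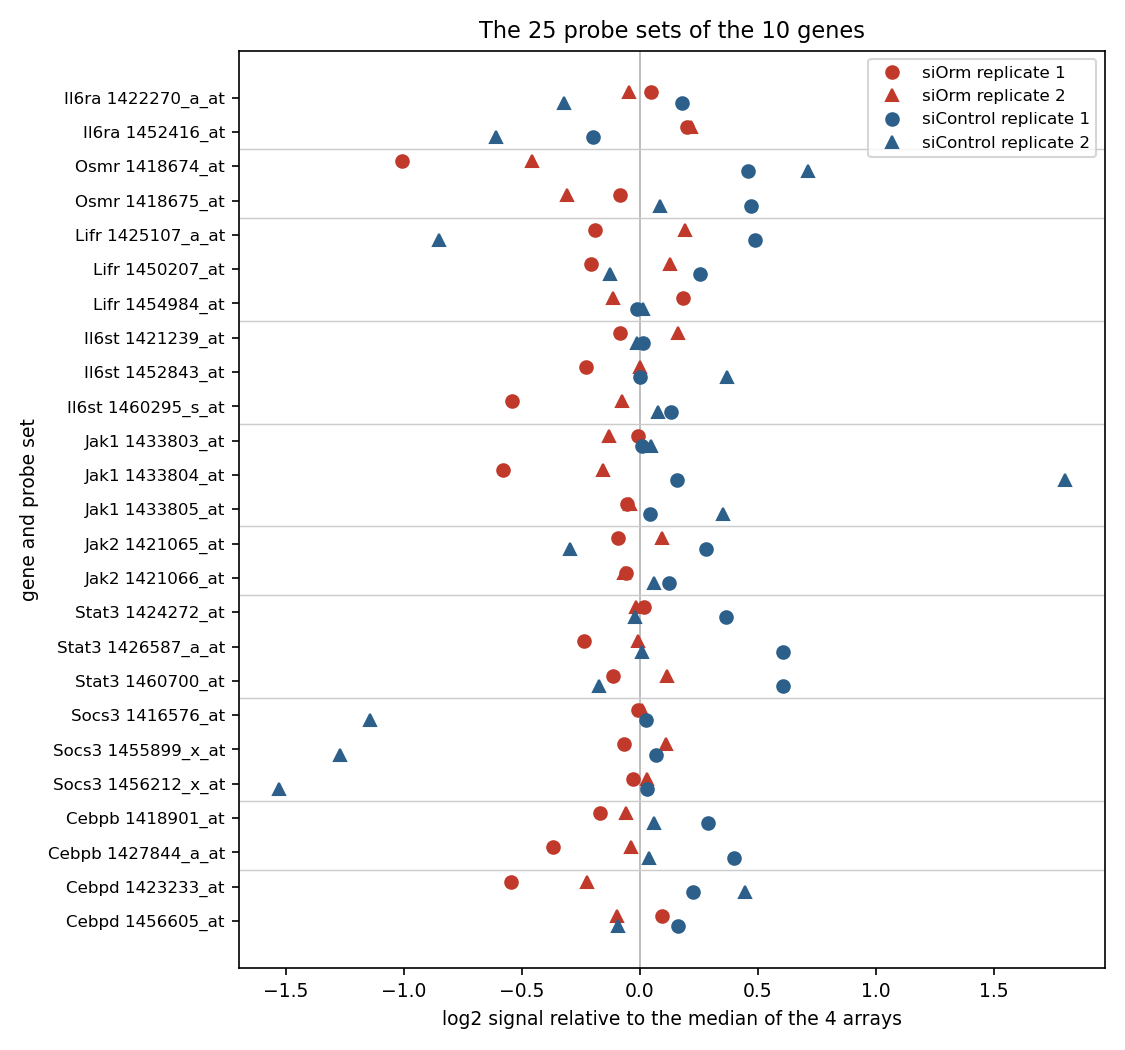
Centred log2 signal (horizontal axis) of each of the 25 probe sets (rows, by gene), with siOrm in red drawn above siControl in blue and circles and triangles for replicates 1 and 2. The 3 Socs3 probe sets place siControl replicate 2 between -1.53 and -1.14 alike, whereas for Jak1 a single probe set carries the value of 1.80 in that array.

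The feedback inhibitor gene Socs3 showed the widest split within a group. It stood at -0.03 and 0.05 in the siOrm arrays, against 0.04 and -1.32 in the siControl arrays. Both siOrm arrays and siControl replicate 1 were thus nearly equal, and siControl replicate 2 was low on its own, with the groups overlapping. All 3 probe sets placed that array low, at -1.14, -1.27 and -1.53. The gap of 1.36 between the siControl arrays was exceeded by 0.934% of genes. The difference of 0.65 (SE 0.42, 95% interval from -0.41 to 1.70, limma adjusted p = 0.994) rested on that array. It was -0.03 without siControl replicate 2, and 1.32 without siControl replicate 1. The adjusted p of that last fit (limma, 0.0188; over all alternatives from 0.0188 to 1) takes its spread from the 2 siOrm arrays and the prior, so the spread of the siControl arrays does not enter it, and the fit called 0.421% of all genes higher.

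Related inhibitor genes were low on the same array. Socs2, which curbs growth hormone signalling, stood at 0.41 and -0.41 in the siOrm arrays, against 0.58 and -1.65 in the siControl arrays. Cish, another member of this family, stood at -0.11 and 0.11 in the siOrm arrays, against 0.58 and -0.86 in the siControl arrays. These 2 genes were picked after their values were seen. Of the 15 measured inhibitor genes other than Socs3, 9 (60.0%) had their lowest value in siControl replicate 2, where 38.8% of all genes did.

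Markers of other liver cell types were also uneven on that array. The mean of 12 macrophage markers was -0.02 and -0.10 in the siOrm arrays, against -0.25 and 0.73 in the siControl arrays, and 11 of the 12 were highest in siControl replicate 2, where 28.1% of all genes were. The 9 stellate cell or fibroblast markers averaged -0.12 and 0.13 in the siOrm arrays, against -0.24 and 0.43 in the siControl arrays. The 8 endothelial markers averaged 0.00 and -0.04 in the siOrm arrays, against -0.13 and 0.30 in the siControl arrays. These 3 lists were highest on siControl replicate 2. The 8 neutrophil markers averaged -0.05 and -0.04 in the siOrm arrays, against 0.08 and 0.54 in the siControl arrays, with S100a8 at 2.75 and S100a9 at 1.95 in siControl replicate 2. In that array 3 of the 8 were highest and 3 lowest. The lymphocyte markers went the other way, with means of 0.15 and -0.02 in the siOrm arrays, against 0.16 and -0.19 in the siControl arrays, and 7 of 8 were lowest in siControl replicate 2, where 38.8% of all genes were. The 5 cholangiocyte markers averaged 0.00 and 0.17 in the siOrm arrays, against -0.04 and 0.11 in the siControl arrays. The 8 hepatocyte markers measured stayed between -0.06 and 0.02 on average in every array, though single markers varied more. In siOrm replicate 1, 4 of the 8 were highest and 2 lowest, with Tat at -0.78. In siControl replicate 2, 4 of the 8 were lowest and 2 highest. For Osmr the difference was -0.93 without that array. The part of these cell types in the values of Osmr, Jak1, Socs3 and the acute phase genes named below was not tested.

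**Figure D3:**
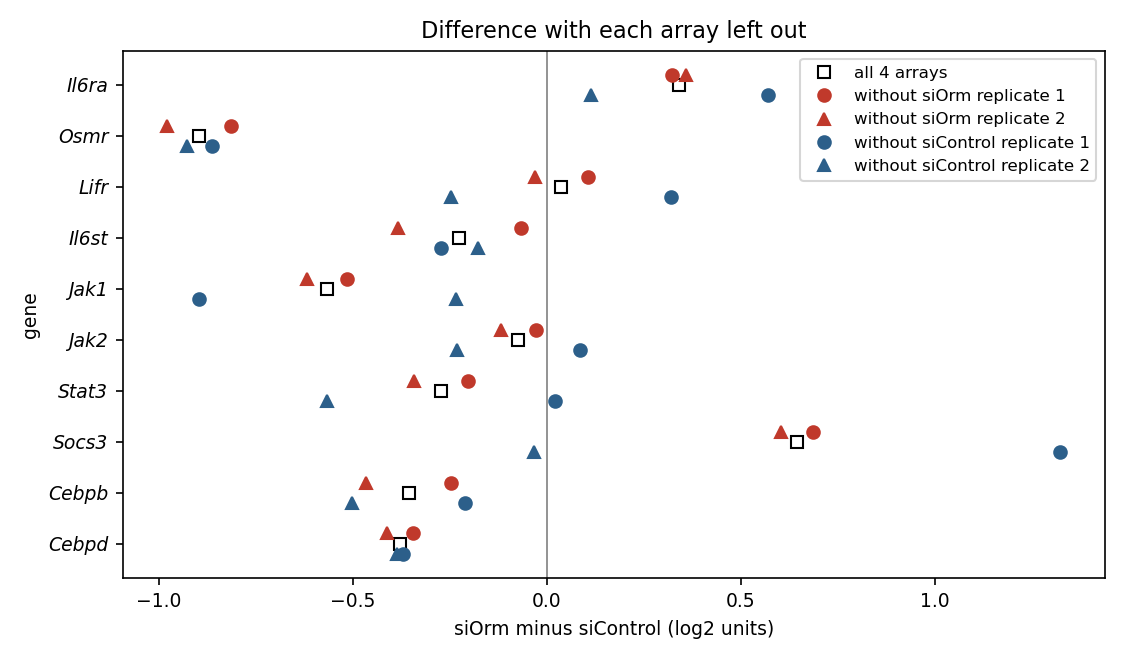
Difference siOrm minus siControl in log2 units (horizontal axis) for each gene (rows) with all 4 arrays (open squares) and with 1 array left out, red for siOrm and blue for siControl arrays, circles for replicate 1 and triangles for replicate 2. Osmr stays between -0.98 and -0.81 and Cebpd between -0.41 and -0.35, while Socs3 runs from -0.03 to 1.32.

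Across the set, 7 of the 10 genes had a lower mean in siOrm and 3 a higher one, with a median difference of -0.25 against 0.01 over all genes. Leaving out siControl replicate 1 gave a median of -0.09, and leaving out siOrm replicate 1 gave -0.135. At an adjusted p under 0.05, limma called 0 of the 10 in either direction (0% of all genes each way), and at an unadjusted p under 0.05 it gave 2 lower, Osmr and Cebpd, and 0 higher, where 2.58% and 2.18% of all genes lay. The siOrm arrays were both lower than either siControl array for 5 of the 10 genes, where 15.3% of all genes showed this. These were Osmr, Il6st, Jak1, Cebpb and Cebpd. The lowest array was siOrm replicate 1 for 6 of the 10 genes (28.4% of all genes) and siControl replicate 2 for 4 (38.8%). Because 2 arrays stood against 2, an exact permutation test for a single gene cannot go below a two-sided p of 0.333.

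**Figure D4:**
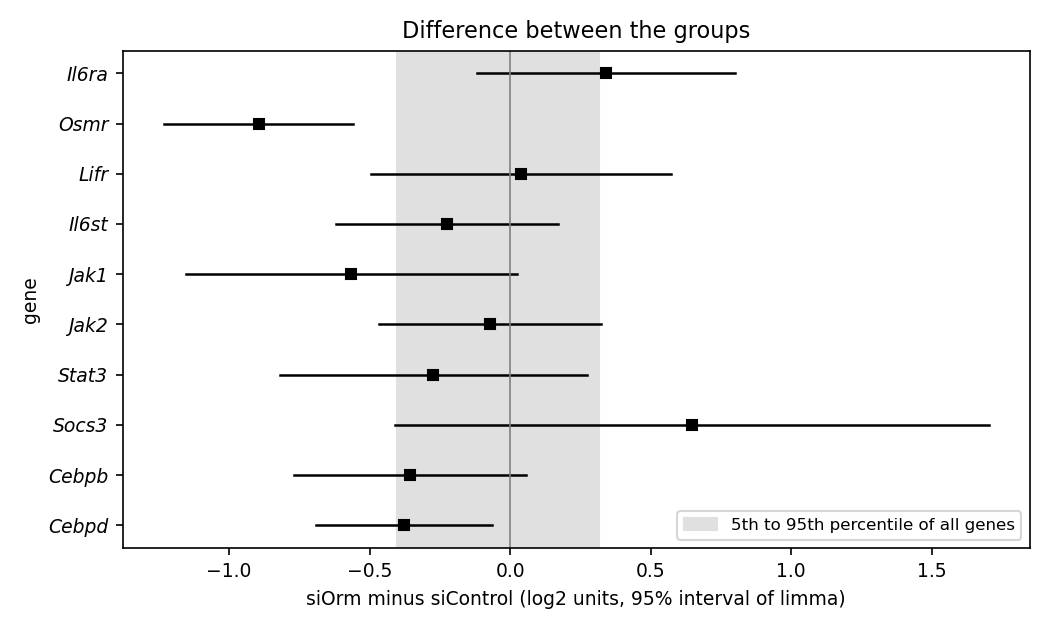
Difference siOrm minus siControl in log2 units (squares) with the 95% interval of limma (lines) for each gene, over a grey band from the 5th to the 95th percentile of all genes, -0.40 to 0.32. Only the intervals of Osmr and Cebpd lie wholly on one side of 0, before any adjustment for the number of genes, and Osmr, Jak1, Socs3 and Il6ra have differences outside the band.

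Among the other genes of the pathway, the ligands had small differences. The 5 measured ligand genes of the gp130 family had a median difference of 0.06, from -0.10 for Clcf1 to 0.26 for Ebi3, a subunit of interleukin 27. Il11 differed by 0.17 and Lif by 0.06. None of the 5 passed in either direction, and 0 had an unadjusted p under 0.05 in limma. Il6 and Osm, which encode interleukin 6 and oncostatin M, were not analysed here.

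Other cytokine receptor genes had small differences. Of 17 measured, 12 were lower and 5 higher in siOrm, with a median of -0.08, where 5219 of all 10923 genes were lower. For these receptors limma called 0 either way, with 0 at an unadjusted p under 0.05. Ghr, the growth hormone receptor, stood at 0.24 and 0.09 in the siOrm arrays, against -0.09 and -0.25 in the siControl arrays, a difference of 0.34 (SE 0.14). Il27ra, a receptor that also pairs with gp130, differed by -0.28, Tnfrsf1a by -0.22 and Il1rap by 0.20. Osmr thus lay beyond the range of these receptors, which ran from -0.28 to 0.34.

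The 6 other JAK and STAT genes had a median difference of -0.05, with 0 passing and 0 at an unadjusted p under 0.05 in limma. Stat5b, which carries the growth hormone signal, differed by 0.26, Jak3 by -0.21, Stat2 by -0.17 and Tyk2 by -0.07. The 15 inhibitors had a median of 0.10, and again 0 passed and 0 had an unadjusted p under 0.05. Ptpn1, a phosphatase that acts on JAK kinases, was the lowest at -0.42 (SE 0.17), with -0.40 and -0.07 in the siOrm arrays against 0.09 and 0.28 in the siControl arrays. Ptpn6, Socs7 and Sh2b3 differed by 0.24, 0.23 and 0.18.

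Genes that STAT3 is known to drive in liver had the lowest median of the 7 pathway lists. Of 32 measured, 23 were lower and 9 higher in siOrm, with a median of -0.21, and limma called 0. At an unadjusted p under 0.05 there were 7 lower and 1 higher, where 2.58% and 2.18% of all genes lay. Without overlap between the groups, siOrm was lower in 14 of the 32 and higher in 1, where 15.3% and 17.0% of all genes were. The array siOrm replicate 1 was lowest for 17 of the 32 (53.1%), against 28.4% of all genes. The list was chosen with earlier results of these data known, so these shares are not independent support for a pattern. Bcl3, a partner of NF-kappaB, stood at -0.63 and -0.44 in the siOrm arrays, against 0.63 and 0.44 in the siControl arrays, a difference of -1.07 (SE 0.15). Hamp, the hepcidin gene, differed by -1.27, Birc5 by -1.25 and Steap4 by -0.98, with limma adjusted p from 0.857 to 0.994 over these 4 genes. Birc5, which encodes survivin, is also a gene of dividing cells, and Steap4 encodes a metal reductase. Leaving out siControl replicate 1 gave a list median of -0.10, and leaving out siOrm replicate 1 gave -0.11.

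The list was not uniform. The fibrinogen genes Fga, Fgb and Fgg, which interleukin 6 induces in hepatocytes, differed by 0.03, -0.01 and 0.02, and Hp, the haptoglobin gene, by -0.10. The kinase gene Pim1 was the 1 gene apart in the other direction, at 0.27 and 0.08 in the siOrm arrays against -0.08 and -0.45 in the siControl arrays. The fibrinogen genes, Hp and Pim1 were singled out after their values were seen. Neutrophil and macrophage cells also express some of the list, such as Lcn2 and Saa3. Lcn2 stood at -0.50 and -0.26 in the siOrm arrays, against 0.26 and 1.26 in the siControl arrays, and Saa3 at -0.13 and -0.23 in the siOrm arrays, against 0.13 and 1.99 in the siControl arrays. Both were thus highest on siControl replicate 2, and without it they differed by -0.64 and -0.31. On that array 11 of the 12 macrophage markers were highest, but of the 8 neutrophil markers 3 were highest and 3 lowest. The part of these cells in the values of Lcn2 and Saa3 was not tested.

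**Figure D5:**
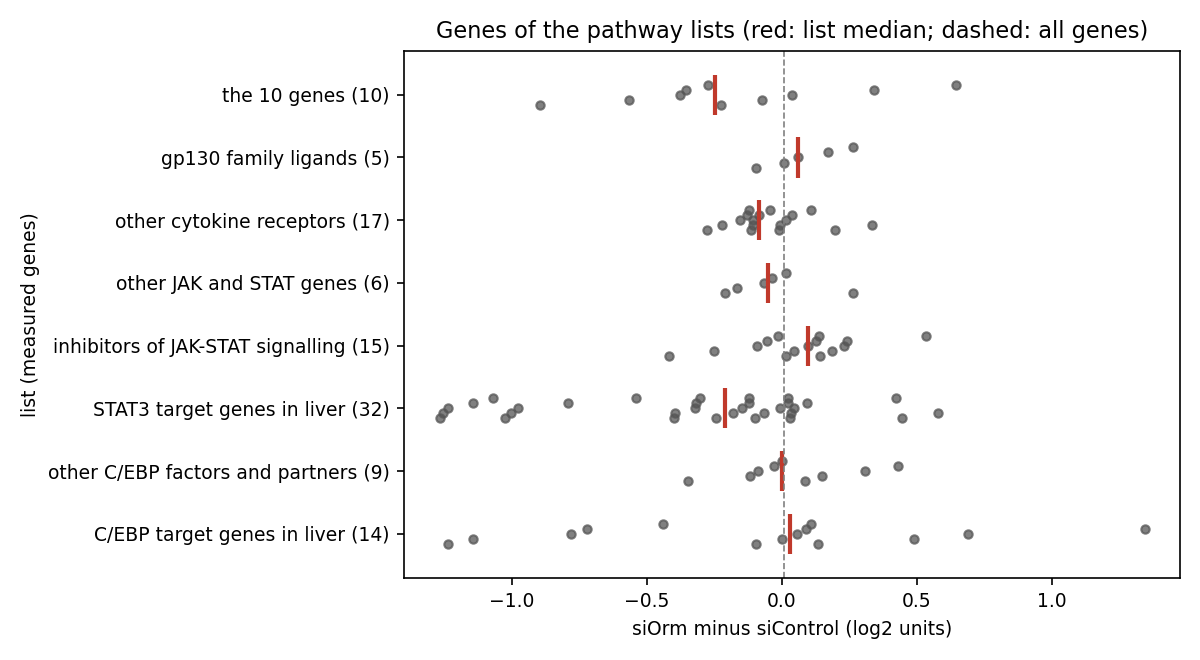
Difference siOrm minus siControl in log2 units (horizontal axis) of every measured gene (points) in each list (rows, number of measured genes in brackets), with list medians as red bars and the median of all genes as a dashed line. The 10 genes have a median of -0.25. Among the 7 pathway lists the STAT3 target list has the lowest median, -0.21. Ligands, inhibitors and C/EBP partners centre near 0, at 0.06, 0.10 and 0.00.

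The remaining C/EBP factors and partners did not lean one way. Their 9 measured genes had a median of 0.00, with 0 passing and 0 at an unadjusted p under 0.05 in limma. Dbp and Hlf, clock-controlled factors of the same fold, differed by 0.43 and 0.31, Ddit3, the stress factor CHOP, by -0.35 and Tef by 0.15. Dbp stood at -0.67 in siControl replicate 2, and without that array its difference was 0.10.

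C/EBP target genes in liver ran in both directions. Of 14 measured, 8 were higher and 6 lower, with a median of 0.03 and 0 passing in limma. At an unadjusted p under 0.05 there were 1 higher and 2 lower, where 2.18% and 2.58% of all genes lay. G6pc, the last enzyme of glucose production, stood at 0.28 and 0.88 in the siOrm arrays, against -1.25 and -0.28 in the siControl arrays, a difference of 1.34 (SE 0.36), or 0.86 without siControl replicate 1. Igfbp1, which binds insulin-like growth factors, differed by -0.72 (SE 0.20). The acute phase genes Lcn2 and Saa3, counted in this list as well, differed by -1.14 and -1.24.

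The genes whose 4 values lay nearest to those of Osmr, by root mean square difference over the 4 arrays, were Gm6958 at 0.03, Bcl3 at 0.10 and Litaf at 0.12. For Cebpd they were Golt1b, Spcs3 and Fmn2, at 0.02, 0.02 and 0.03. For Cebpb they were Sars2, Yrdc and Xbp1, at 0.02, 0.02 and 0.04, and for Il6st they were Pwp1, Spry4 and Irak1. Socs3 had more distant neighbours, Crebrf at 0.07, Cpeb2 at 0.13 and Slc8b1 at 0.14, all with a low value in siControl replicate 2, at -1.18, -1.16 and -1.09. Jak1 lay nearest to Atp8a1, Evi2a and Sec23b, which stood at 0.74, 0.76 and 0.78 in that array. The nearest to Stat3 were Lrig1, Gp2 and Dvl2, to Lifr Rusc2, Ang2 and Cyp1a1, to Jak2 Dpm1, Tmc1 and Mxd1, and to Il6ra Nit2, F13b and Tyw5. With 4 centred values per gene, near neighbours are easily found among 10923 genes.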

How the data were processed

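Regenerating liver RNA of mice was hybridised to 2 siOrm and 2 siControl arrays, grouped by the labels; replicate numbers are those of the titles, which in siOrm could also mean the target genes Orm1 and Orm2. The deposited table gives log2 signal per probe set, centred so that each row has a median of 0 (largest row median 4.8e-07). The software, the normalization and the logarithm's base are not named in the sources used here; were the logarithms natural, differences in log2 units would be 1.44 times as large. The series text names an Affymetrix 430A array, whereas the labels' protocols describe another maker's labelling and RNA from cultured cells, which leaves the laboratory steps uncertain. Signal over background cannot be seen, and the number of arrays limits the precision.

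Of 18852 probe sets, 17209 had 1 gene symbol in the platform annotation, 564 had several, 1044 had no symbol and 35 were controls. Those with 1 symbol gave 10923 genes, 10907 of them found by gene number in the GRCm38.p6 table. Probe sets were averaged per gene. Differences were fitted with limma 3.58.1 under R 4.3.3 (two-sided, constant variance prior, Benjamini-Hochberg over all genes, threshold 0.05), after a test on simulated data. Named genes were the 10 genes, Orm1 to Orm3, up to 4 genes per list with the smallest p, and the 3 nearest patterns per gene. The paralogs Orm2 and Orm3 differed by -1.08 and -0.91. The genes and lists were chosen with earlier results of these data known. Alternatives were another prior, 2 normalizations, other uses of probe sets, a replicate block and leaving out each array. The deviations of same-numbered arrays correlated at 0.132 over genes, and nothing in the labels pairs them.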

Additional observations from a re-analysis of the deposited data

How the results depend on the processing

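Limma called 0 genes with all 4 arrays. It called 11 with a variance prior that follows the mean value, among them Osmr at -0.90 (adjusted p = 0.0418), and between 0 and 229 when 1 array was left out, the 229 without siControl replicate 1, where the siOrm arrays alone supply the spread. It called 0 under quantile normalization, subtraction of array medians, the median of probe sets, the removal of probe sets named _x_at, _s_at or _a_at, and a fit of each probe set. With the replicate number as a block it also called 0, with Osmr at an adjusted p of 0.495. The median difference of the 10 genes lay between -0.36 and -0.094 when 1 array was left out. Osmr and Cebpd stayed negative under every alternative run, as did Cebpb and Jak1, and Il6ra stayed positive. The sign turned for Lifr, with -0.0002 under quantile normalization, -0.094 with the median of probe sets, -0.035 without the named probe sets and -0.10 for 1450207_at alone. It turned for Il6st at 0.038 for 1421239_at and for Jak2 at 0.009 for 1421065_at. Leaving out 1 array moved Lifr between -0.25 and 0.32, Jak2 between -0.23 and 0.087, Stat3 between -0.57 and 0.021, Socs3 between -0.033 and 1.32, and Jak1 between -0.90 and -0.23. Of 125 values over the 10 genes and these alternatives, 11 changed sign and 3 newly passed the test. The cause was not tested. Dim probe sets could not be filtered, because the table is centred. For the same reason, the mean value that the other variance prior follows is not signal level.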
